A study of Mus musculus with 4 samples.

Results

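The genes described here are the striated muscle sarcomere genes, a list of 43 names taken from the 55573 genes in the deposited table, of which 21900 were protein-coding. The list was chosen by name: sarcomeric myosin heavy and light chains, troponins, the giant proteins titin and nebulin, myosin-binding, M-band and Z-disc proteins, tropomodulins, and 5 genes of calcium handling and energy supply. All 43 were found. Measurements came from ribosome profiling of mouse myoblasts (precursors of muscle fibers, cultured from digested hind-limb muscle) on day 2 of proliferation in medium with serum and FGF. There were 2 WT libraries and 2 eIF5A-KO libraries, all from 3-week-old mice. The study's methods describe eIF5A-KO as a tamoxifen-induced deletion of floxed eIF5A by Pax7CreERT2, which acts in satellite cells, so other cells of the culture keep the gene. For WT, the study describes littermates, either with Pax7CreERT2 and no floxed gene or with the floxed gene and no Cre. Which of these supplied the profiled cells is not given, and neither is whether a library pools animals. The 2 libraries of a group were labelled as replicates, and the study speaks of duplicate ribosome profiling experiments. Whether these used separate animals or cultures is not given. The p-values therefore measure the spread between these libraries, which may be technical.

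The sarcomere is the contractile unit of striated muscle. Thick filaments of myosin pull on thin filaments of actin, and troponin on the thin filament makes this pull depend on calcium. Titin spans from the Z-disc to the M-band, nebulin lies along the thin filament, and alpha-actinin anchors thin filaments at the Z-disc. Proliferating myoblasts have not yet built sarcomeres. The genes are switched on when cells leave the cell cycle and fuse, under myogenic factors such as MyoD and myogenin that bind E-boxes (CANNTG). Developmental myosins come first and are replaced by adult fast or slow forms in the growing fiber. Translation factor eIF5A helps ribosomes through difficult stretches such as consecutive prolines.

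To show the DNA that precedes sarcomere genes with many WT reads, promoter sequences from RefSeq (GRCm38.p6, 250 bases before to 50 after the start) were matched by symbol for 35 of the 43 genes. Neb and Actn3, next to Ttn in WT reads, had no match. Those of Ttn (chr2:76982498-76982797, minus strand), Atp2a1 (chr7:126463024-126463323, minus strand), Mylpf (chr7:127211358-127211657, plus strand, a start 2718 bases inside the gene as tabulated) and Ryr1 (chr7:29125102-29125401, minus strand) are given 5′ to 3′ with any CANNTG or TATAAA in capitals.
Ttn: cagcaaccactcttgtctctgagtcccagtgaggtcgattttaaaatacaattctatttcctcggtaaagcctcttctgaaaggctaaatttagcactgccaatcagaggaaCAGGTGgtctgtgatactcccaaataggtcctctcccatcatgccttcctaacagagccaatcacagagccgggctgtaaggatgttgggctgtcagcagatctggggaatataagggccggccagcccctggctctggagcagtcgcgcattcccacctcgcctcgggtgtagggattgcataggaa
Atp2a1: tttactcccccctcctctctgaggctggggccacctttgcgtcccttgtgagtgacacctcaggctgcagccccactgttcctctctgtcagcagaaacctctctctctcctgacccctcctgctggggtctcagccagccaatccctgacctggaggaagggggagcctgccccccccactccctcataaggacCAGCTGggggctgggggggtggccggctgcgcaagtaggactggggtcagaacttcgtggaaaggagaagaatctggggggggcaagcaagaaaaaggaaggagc
Mylpf: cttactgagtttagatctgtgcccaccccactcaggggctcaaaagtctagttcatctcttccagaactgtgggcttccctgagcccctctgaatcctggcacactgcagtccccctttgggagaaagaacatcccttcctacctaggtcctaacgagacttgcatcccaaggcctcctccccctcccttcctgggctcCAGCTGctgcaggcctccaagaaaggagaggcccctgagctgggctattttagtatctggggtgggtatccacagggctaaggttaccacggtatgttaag
Ryr1: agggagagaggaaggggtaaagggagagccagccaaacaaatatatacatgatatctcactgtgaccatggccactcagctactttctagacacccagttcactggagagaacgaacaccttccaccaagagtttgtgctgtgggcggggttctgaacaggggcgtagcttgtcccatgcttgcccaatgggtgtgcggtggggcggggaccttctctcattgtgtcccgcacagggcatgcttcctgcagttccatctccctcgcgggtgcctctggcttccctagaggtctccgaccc
The Ttn window held CAGGTG with its first base at -138 from the start. CAGCTG began at -55 in the Atp2a1 window and at -51 in the Mylpf window. The Ryr1 window held neither pattern. Each motif was searched on both strands, and CAGCTG and CACCTG are special cases of CANNTG. Of the 35 windows, 29 (82.9%) held CANNTG, compared with 72.3% of all 32851 promoters of the same length in the table. CAGCTG was in 12 windows (34.3% against 16.3% of all promoters), and CACCTG was in 12 (34.3% against 20.2%). The core promoter pattern TATAAA was in 10 windows (28.6% against 13.6%). These are matches of letters only, and no binding was measured.

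A further sequence shows why reads of the adult myosin heavy chains are hard to assign. The 30 bases ATCGCCAAGCTGACCAAGGAGAAGAAGGCC occur identically in the coding sequences of Myh1, Myh2, Myh4 and Myh8, which are neighbours on chromosome 11. In Myh1 they are coding bases 2986 to 3015 and lie within exon 24 of 40 of the GENCODE M21 transcript (GRCm38, chr11:67213605-67213634, plus strand). Of the 5797 words of 30 bases in the Myh1 coding sequence, 446 (7.69%) were in all 4 genes and 42.3% were in at least 1 other gene. This share was 41.0% in Myh2, 32.3% in Myh4, 35.2% in Myh8 and 12.2% in Myh3. The cardiac pair Myh6 and Myh7 had 34.9% and 35.0% of their words elsewhere, nearly all of them in each other. Myl1 shared 56.4% with the pseudogene Mylf-ps. Actn2, Actn3, Atp2a1 and Ryr1 shared at most 1.47% of their words, and the other 31 genes shared none. Values of single myosin heavy chains and of Myl1 are therefore uncertain.

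The RPKM values (reads divided by gene length and by the authors' library size) were whole multiples of 1 read, so reads were recovered. The 4 libraries held 642429 to 704006 reads, of which 217651 to 460099 fell on protein-coding genes, with both WT libraries (269143 and 217651) below both KO libraries (460099 and 385091). Eif5a itself did not fall in the libraries labelled KO. Its level was 34.9 and 65.2 RPKM in WT and 60.3 and 59.4 RPKM in KO (log2 fold change 0.32 ± 0.48 SE, limma adjusted p = 0.839), so the reads of the targeted gene did not bear out the label. The signal counts ribosome-protected fragments and was not divided by mRNA level, so fewer ribosomes per mRNA, less mRNA and fewer cells of a type cannot be told apart.

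Ribosome-protected reads on sarcomere genes were few and most came from WT library 1. The 43 genes together had 771 reads in the 4 libraries, of which 465 (60.3%) were in WT library 1, whose library size was 21.6% of the 4. WT library 2 had 84, KO library 1 had 127 and KO library 2 had 95. In reads per 1000000 protein-coding reads, this was 1728 in WT library 1 (95% Wilson interval 1578 to 1892), 386 in WT library 2 (312 to 478), 276 in KO library 1 (232 to 328) and 247 in KO library 2 (202 to 302). Intervals cover counting error only. Both WT values lay above both KO values. WT library 2 was nearer to the KO libraries than to WT library 1. The group means were 1057 ± 949 in WT and 261 ± 20.7 in KO (SD, n = 2 each; exact two-sided permutation p = 0.33, the smallest that 2 against 2 libraries can give). The ratio of KO to WT was 0.247 with all libraries and 0.677 without WT library 1. When divided by all reads instead, WT library 2 (131 reads per 1000000) lay below both KO libraries (180 and 146).

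**Figure D1:**
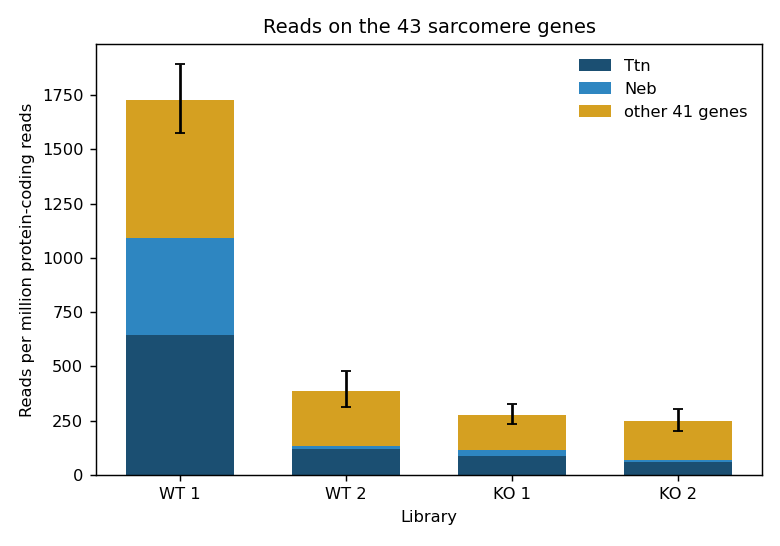
Sarcomere gene signal as reads per 1000000 protein-coding reads (y axis), summed over the 43 genes, in each library (x axis), split into Ttn, Neb and the other 41 genes; error bars are 95% Wilson intervals of the total. WT library 1 stands at 1728 and the other 3 libraries lie between 247 and 386.

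Titin and nebulin, the longest genes of the list, took 402 of the 771 reads (52.1%). Without them the other 41 genes had 635, 253, 161 and 179 reads per 1000000 coding reads in WT 1, WT 2, KO 1 and KO 2. The order of the groups was the same, with a smaller lead of WT library 1. Summed over the list on the RPKM scale, which gives long genes no extra weight, the levels were 101.7, 50.7, 30.5 and 29.0.

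Most sarcomere genes were close to or below the limit of detection. No read was found in any library for 7 of them: the cardiac myosin Myh6, cardiac troponin I Tnni3, fast troponin C Tnnc2, the Z-disc genes Tcap, Myoz1 and Myoz2, and the tropomodulin Tmod4. Of these, 74.0% of the Tnnc2 exon bases overlap Ube2c on the opposite strand, so its reads could also have been dropped by counting. A count of 0 allows up to 3 reads, which is 11.1, 13.8, 6.52 and 7.79 reads per 1000000 protein-coding reads in WT 1, WT 2, KO 1 and KO 2. A further 23 genes had 1 to 9 reads over the 4 libraries, 4 had 10 to 19 and 9 had at least 20. In both KO libraries 30 of the 43 had 3 reads or fewer, and 21 had 3 or fewer in every library. A read in all 4 libraries was found for 14.

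**Figure D2:**
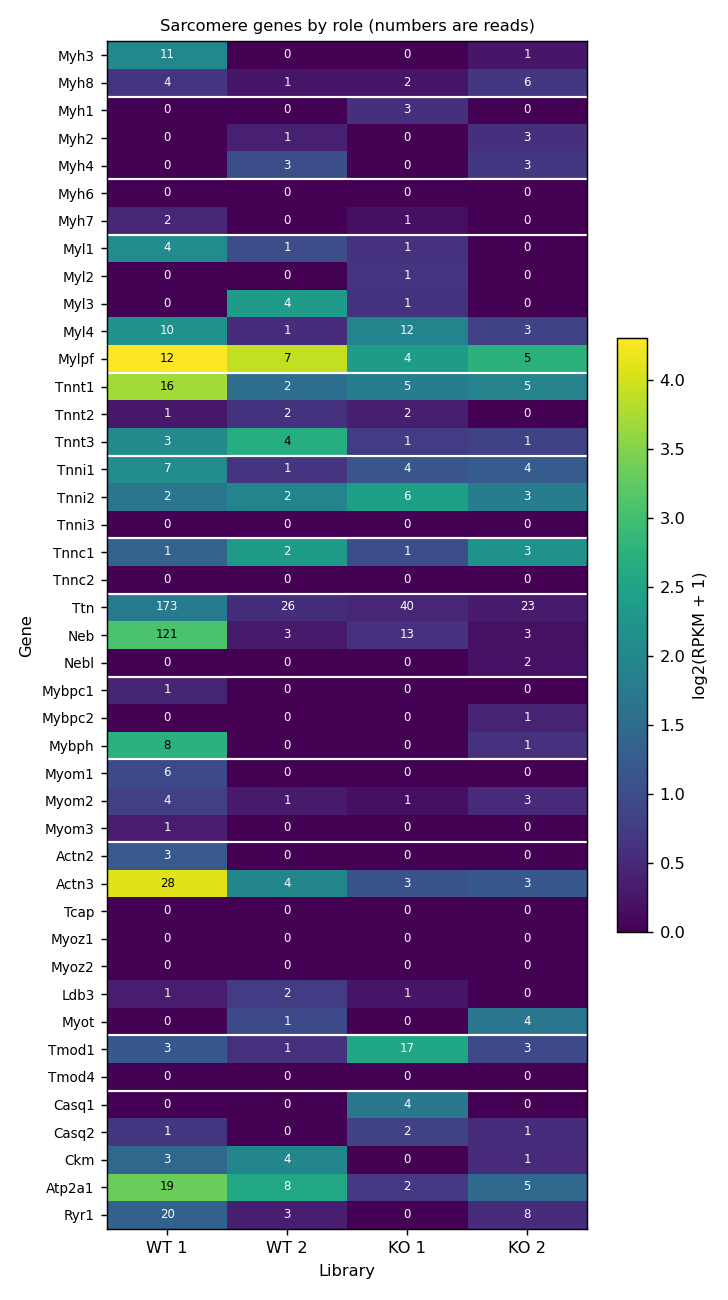
Heat map of log2(RPKM + 1) for the 43 sarcomere genes (rows, grouped by role with white lines between roles) in the 4 libraries (columns); the number in each cell is the reads. Colour concentrates in WT library 1, where Ttn has 173 reads and Neb 121, and 7 rows are 0 throughout.

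For the comparison of eIF5A-KO with WT, 15 of the 43 genes passed the filter of a mean of at least 1 RPKM. This filter favours short genes with reads in any single library, and it left out Ttn and Ryr1. None of the 15 passed the adjusted threshold of 0.05 in limma (lowest adjusted p = 0.608). Over all 11363 tested genes, 0.0968% were called lower and 0.0088% higher. Among the 15, with an unadjusted p under 0.05, 4 were lower in KO (Mylpf, Actn3, Atp2a1 and Tnnt3) and 0 higher, where 4.46% of all tested genes were lower and 2.86% higher. The log2 fold change was below 0 for 12 of the 15, with a median of -1.06, while the median of all tested genes was 0.00. The filter bears on these numbers, since 6 of the 15 passed it with a KO mean under 1 RPKM and 1 (Tmod1) with a WT mean under it. Over the 36 sarcomere genes with any read the median was -0.23. With groups at 3 reads or fewer in both libraries set to that floor, 13 genes had a fold and their median was -0.62. Fitting reads with limma-voom for genes with at least 20 reads tested 9 sarcomere genes. None passed after adjustment (lowest adjusted p = 0.288), where 0.425% of all 9179 genes were called lower and 0.0% higher. With an unadjusted p under 0.05, 3 were lower (Ttn, Atp2a1 and Actn3) and 0 were higher, where 6.66% of all genes were lower and 3.48% higher. Without WT library 1, 8 of the 15 fold changes stayed below 0 and 3 genes were lower at an unadjusted p under 0.05 in limma (Tnnt3, Ckm and Myl3) and 0 higher, where 5.7% of all tested genes were lower and 3.93% higher. In that fit the KO libraries alone supply the spread, and the lone WT library is assumed to vary like them. All 3 genes are among the 6 that passed the filter with a KO mean under 1 RPKM, so their direction was favoured by the filter.

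Among the 9 genes with at least 20 reads, both KO values lay below both WT values for 4 (Mylpf, Actn3, Atp2a1 and Ttn) and above them for 0. Over all 9179 genes with as many reads, 20.8% were lower and 22.7% higher by this count. With each library scaled to an equal read total, 3 of the 9 were lower, since Ttn in WT library 2 then lay below KO library 1. The shares of 20.8% and 22.7% do not apply to these 3, and no share over all genes was counted after scaling. The scaling favoured higher values in KO. At an unadjusted p under 0.05 in limma, 170 of 11363 genes were then lower and 1684 higher. WT library 1 held the highest value of 8 of the 9, compared with 31.1% of the 9179 genes. In 6 of the 9 (Actn3, Tnnt1, Neb, Myl4, Ttn and Ryr1) WT library 1 exceeded WT library 2 more than 4-fold, compared with 4.53% of the 9179. Mylpf, Actn3, Tnnt1, Atp2a1, Ryr1, Neb and Myl4 reached 20 reads only with those of WT library 1. The filter thus favoured high values there, and it bears on all these counts.

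**Figure D3:**
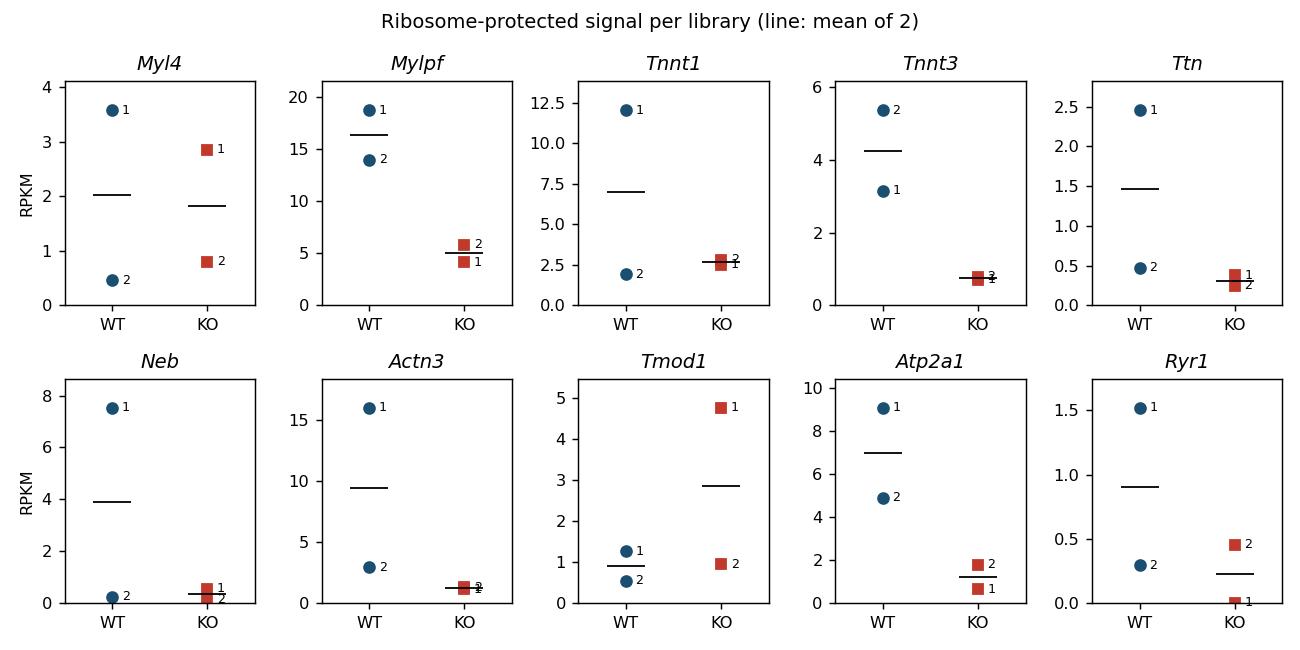
Ribosome-protected signal in RPKM (y axis, a separate scale from 0 for each gene) in WT and KO libraries (x axis; the digit is the replicate number, the line the mean of 2) for the 10 sarcomere genes with at least 20 reads or an unadjusted p under 0.05. Mylpf and Atp2a1 separate WT from KO with both WT libraries high, while Neb is high in WT library 1 alone. Tnnt3 also separates them, but on 3, 4, 1 and 1 reads, and it was chosen by its p.

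Titin (Ttn, ENSMUSG00000051747, chr2:76703980-76982547) is the molecular spring that links the Z-disc to the M-band, and its longest coding transcript has 347 exons and codes for 35213 residues. Its reads were 173 and 26 in WT and 40 and 23 in KO, which per length gave 2.46, 0.47, 0.38 and 0.24 RPKM. Both WT values lay above both KO values, but WT library 2 was much closer to KO library 1 than to WT library 1. The ratio between the 2 WT libraries was 5.20 (exact conditional 95% interval 3.43 to 8.19), larger than the ratio of the group means of 4.71. In limma-voom the log2 fold change was -1.82 ± 0.58 SE (unadjusted p = 0.005, adjusted p = 0.288). On log2(RPKM + 1) over genes with at least 20 reads it was -0.79 ± 0.47 SE (limma adjusted p = 0.598). Thus the gene with the most reads gave no call.

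Nebulin (Neb, ENSMUSG00000026950, chr2:52136647-52378474) runs along the thin filament of skeletal muscle. Its reads were 121 and 3 in WT and 13 and 3 in KO, or 7.52, 0.24, 0.54 and 0.14 RPKM. WT library 1 held 86.4% of them, and WT library 2 lay between the 2 KO libraries. The WT libraries differed by a ratio of 31.5 (10.5 to 155). The log2 fold change of -1.30 ± 1.03 SE (limma adjusted p = 0.720) became 0.10 without WT library 1. Nebl, the related nebulette of cardiac muscle, had 2 reads, both in KO library 2.

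**Figure D4:**
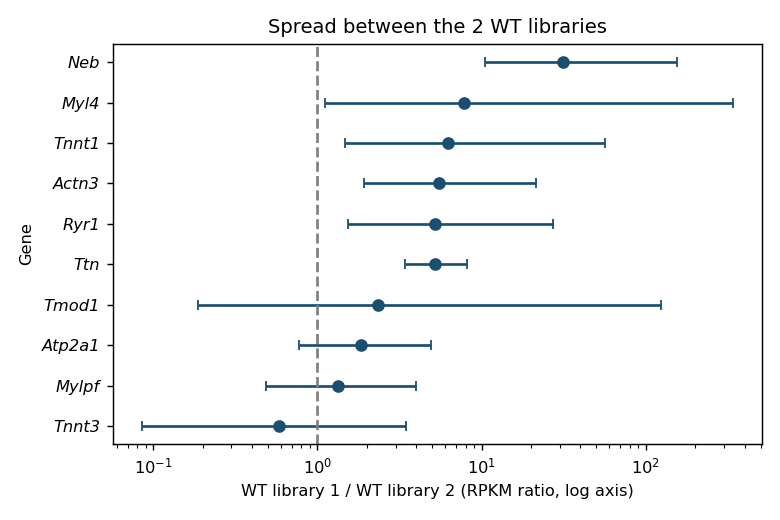
Ratio of WT library 1 to WT library 2 in RPKM (x axis, log scale) for the same 10 sarcomere genes (y axis), with exact conditional 95% intervals from the reads; the dashed line marks 1. Neb has the highest ratio of 31.5, while the intervals of Mylpf, Atp2a1, Tnnt3 and Tmod1 include 1.

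Alpha-actinins cross-link thin filaments at the Z-disc, and Actn3 (ENSMUSG00000006457, chr19:4861216-4877909) codes for the form of fast fibers. Its level was 16.01 and 2.93 RPKM in WT and 1.14 and 1.28 RPKM in KO, from 28, 4, 3 and 3 reads. The groups did not overlap, yet WT library 2 rests on 4 reads and each KO value on 3. The log2 fold change was -1.89 ± 0.72 SE (limma unadjusted p = 0.040, adjusted p = 0.672), and it was -0.83 without WT library 1. Actn2, the form found in heart and all skeletal fibers, had 3 reads, all in WT library 1. Of the other Z-disc genes, Ldb3, a scaffold of the Z-disc, had 1, 2, 1 and 0 reads, and Myot (myotilin) had 0, 1, 0 and 4.

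The myosin light chains bind the neck of the heavy chain. Mylpf (ENSMUSG00000030672, chr7:127208890-127214298), the regulatory light chain of fast fibers, had the highest mean level of the 43 genes. It stood at 18.74 and 13.99 RPKM in WT and 4.15 and 5.83 RPKM in KO, from 12, 7, 4 and 5 reads. Both WT libraries were high and both KO libraries low, with means of 16.4 ± 3.36 and 4.99 ± 1.19 RPKM (SD, n = 2 each). The WT libraries differed by a ratio of 1.34 (0.49 to 4.02). KO differed from WT by a log2 fold change of -1.54 ± 0.39 SE (limma unadjusted p = 0.008, adjusted p = 0.608), and -1.34 without WT library 1. Myl4 (ENSMUSG00000061086, chr11:104550663-104595753), the embryonic and atrial light chain, was different. It had 3.58 and 0.46 RPKM in WT and 2.85 and 0.80 RPKM in KO, from 10, 1, 12 and 3 reads. The high and low libraries were 1 of each group, and the fold change was 0.03 ± 0.76 SE on the log2 scale (limma adjusted p = 0.994). Myl1, Myl2 and Myl3 had 6, 1 and 5 reads in all.

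Troponin T ties the troponin complex to tropomyosin. Tnnt3 (ENSMUSG00000061723, chr7:142498836-142516009), the fast form, had 3.14 and 5.36 RPKM in WT and 0.70 and 0.78 RPKM in KO. The groups did not overlap and WT library 2 was the higher, but these values come from 3, 4, 1 and 1 reads. In the fit, the log2 fold change was -1.56 ± 0.48 SE (limma unadjusted p = 0.018, adjusted p = 0.660), and -1.87 without WT library 1. The slow form Tnnt1 (ENSMUSG00000064179, chr7:4504570-4516382) stood at 12.04 and 1.93 RPKM in WT and 2.50 and 2.81 RPKM in KO, from 16, 2, 5 and 5 reads. WT library 2 was below both KO libraries, so the groups overlapped. Its log2 fold change of -0.76 ± 0.73 SE (limma adjusted p = 0.737) became 0.32 without WT library 1. Tnnt2, the cardiac and embryonic form, had 5 reads in all.

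Troponin I blocks the actin-myosin contact at rest, and troponin C binds the calcium that lifts the block. Slow Tnni1 had 7, 1, 4 and 4 reads in WT 1, WT 2, KO 1 and KO 2, and fast Tnni2 had 2, 2, 6 and 3. Neither separated the groups (log2 fold changes -0.17 and 0.31, limma adjusted p = 0.944 and 0.825), and Tnni1 turned to 0.53 without WT library 1. Tnnc1, the slow and cardiac troponin C, had 1, 2, 1 and 3 reads.

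Myosin heavy chains, the motors of the thick filament, were barely read. Embryonic Myh3 (chr11:67078300-67102291) had 11, 0, 0 and 1 reads, so 91.7% lay in WT library 1. Neonatal Myh8 had 4, 1, 2 and 6. The adult fast chains Myh1, Myh2 and Myh4 together had 0, 4, 3 and 6 reads, and slow Myh7 had 2, 0, 1 and 0. Adult fast chains therefore were not detected in the library where Myh3, Ttn and Neb were highest. Summed by isoform class, a grouping chosen after the values were seen, the 4 embryonic and neonatal genes had 7.37, 1.19, 3.33 and 1.64 RPKM. The 12 adult fast genes had 52.4, 32.4, 14.4 and 13.6 RPKM, and the 11 slow and cardiac genes had 18.2, 10.7, 6.82 and 8.20 RPKM. On this scale the WT and KO libraries overlapped in the first class and not in the other two. Per 1000000 of all reads, the slow and cardiac class overlapped as well, since WT library 2 (14.0 reads) lay below both KO libraries. In WT, most of the fast-class signal came from Mylpf, Actn3 and Atp2a1.

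M-band and myosin-binding protein genes had 1 to 9 reads each where any were found. Myom1, which ties titin to myosin in the M-band, had 6 reads, all in WT library 1. Myom2 had 4, 1, 1 and 3, and Myom3 had 1. The myosin-binding protein H gene Mybph had 8, 0, 0 and 1 reads, and 49.9% of its exon bases overlap Adora1 on the opposite strand. Mybpc1 and Mybpc2 had 1 read each. In all, 4 genes (Actn2, Myom1, Mybpc1 and Myom3) had reads in WT library 1 and in no other library, while 9 genes with reads had none there.

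Tmod1 (ENSMUSG00000028328, chr4:46038935-46116032), which caps the pointed end of the thin filament and is also made outside muscle, was the 1 gene of the 9 whose highest value was in a KO library. Its level was 1.26 and 0.54 RPKM in WT and 4.75 and 0.94 RPKM in KO, from 3, 1, 17 and 3 reads. KO library 1 alone was high, and KO library 2 lay within the WT range. KO over WT, the log2 fold change was 0.84 ± 0.71 SE (limma adjusted p = 0.727). It was 0.06 without KO library 1 and 1.62 without KO library 2. Of its exon bases, 32.6% overlap Tstd2 on the opposite strand.

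Calcium handling starts each contraction. Atp2a1 (ENSMUSG00000030730, chr7:126445858-126463108) codes for SERCA1, the pump that returns calcium to the sarcoplasmic reticulum of fast fibers. It had 9.06 and 4.88 RPKM in WT and 0.63 and 1.78 RPKM in KO, from 19, 8, 2 and 5 reads. The groups did not overlap, with means of 6.97 ± 2.96 and 1.21 ± 0.81 RPKM (SD, n = 2 each) and a ratio of 5.78. Its log2 fold change was -1.85 ± 0.49 SE (limma unadjusted p = 0.010, adjusted p = 0.629) and stayed at -1.46 without WT library 1. Of its exon bases, 21.9% overlap Rabep2 on the opposite strand. Ryr1 (ENSMUSG00000030592, chr7:29003344-29125179), the calcium release channel, had 1.52 and 0.29 RPKM in WT and 0 and 0.45 RPKM in KO, from 20, 3, 0 and 8 reads. Its groups overlapped, since KO library 2 was above WT library 2 (log2 fold change -3.04 ± 1.67 SE in limma-voom, adjusted p = 0.539, but -0.58 ± 0.44 SE on log2(RPKM + 1), limma adjusted p = 0.665). The muscle creatine kinase Ckm, which buffers ATP, had 3, 4, 0 and 1 reads. The calcium stores Casq1 and Casq2 had 4 reads each.

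**Figure D5:**
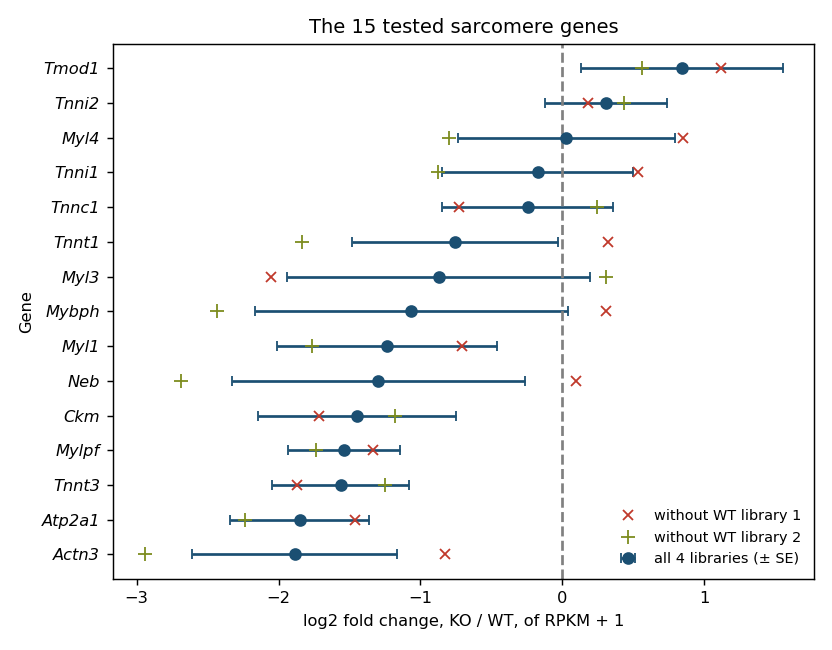
Log2 fold change of KO over WT on log2(RPKM + 1) (x axis) for the 15 tested sarcomere genes (y axis): points with SE bars use all 4 libraries, crosses leave out WT library 1 and plus signs WT library 2. Mylpf, Tnnt3, Atp2a1 and Ckm stay below -1 in all 3 fits, though Tnnt3 (9 reads) and Ckm (8 reads) passed the filter only through WT, while Neb moves from -2.69 without WT library 2 to 0.10 without WT library 1.

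Since eIF5A is known for helping ribosomes at consecutive prolines, runs of 3 or more prolines were counted in the longest coding sequence of each gene. Such a run was present in 7 of the 43 sarcomere genes (16.3%), and in 19.9% of 21709 protein-coding genes. The 7 were Ttn, Ryr1, Mybpc1, Mybpc2, Myom1, Myom3 and Myot. Titin had 32 runs, the longest of 5 prolines, and Ryr1 had 7, the longest of 6. Mylpf, Actn3, Atp2a1 and Tnnt3, with an unadjusted p under 0.05 in limma, had no run over 2. Ttn had the lowest unadjusted p of the list in limma-voom but no call after adjustment. It is also the longest protein of the list and the gene with the most reads. A part of proline runs in these values was not tested.

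Further muscle genes were taken from 3 other lists, whose counts stand beside the 4.46% of all tested genes that were lower and the 2.86% that were higher at the same unadjusted p. Of 35 further sarcomere-associated genes, 10 were tested, 1 fell at an unadjusted p under 0.05 and 0 rose (median log2 fold change -0.75). The cardiac actin Actc1, the main actin of early myotubes, was that gene, at 63.6 and 6.56 RPKM in WT and 2.04 and 3.06 RPKM in KO (log2 fold change -2.65 ± 0.98 SE, limma adjusted p = 0.672). The skeletal actin Acta1 had 128.5 and 41.5 RPKM in WT and 30.1 and 25.8 RPKM in KO (-1.36 ± 0.62 SE, adjusted p = 0.676 in limma). Of 23 genes of excitation-contraction coupling and muscle energy, 11 were tested, 2 were lower and 0 higher (median -0.66). These were the calcium channel subunit Cacng1, high in both WT libraries (14.6 and 18.7 RPKM against 4.41 and 3.97 RPKM), and the junction protein Jph2 (12.5 and 2.99 RPKM against 0.26 and 2.04 RPKM). Of 18 regulators and early genes of muscle differentiation, 15 were tested, 7 were lower and 0 higher (median -1.07). The filter favoured lower values here too, since Chrng and Myf5 among the 7 had a KO mean under 1 RPKM. No gene of these 3 lists passed after adjustment in limma, and 1 (Chrna1) did in limma-voom.

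Of the myogenic regulators, some were high in WT library 1 alone and others in both WT libraries. Myog, the factor that starts terminal differentiation, had 91.0 and 4.26 RPKM in WT and 0.74 and 1.66 RPKM in KO, from 82, 3, 1 and 2 reads. Like Neb and Actc1 it was high in WT library 1 alone. For Myog and Actc1, though not for Neb, WT library 2 still lay above both KO libraries, on 3 and 5 reads. In contrast, Myod1, the factor of committed myoblasts, had 139.9 and 117.5 RPKM in WT and 48.6 and 79.8 RPKM in KO (log2 fold change -1.03 ± 0.48 SE, limma adjusted p = 0.676). The muscle intermediate filament Des had 46.0 and 40.1 RPKM against 13.8 and 21.4 RPKM (-1.27 ± 0.43 SE, limma adjusted p = 0.665). Both were high in both WT libraries, as were Mylpf and Atp2a1, and Tnnt3 on 9 reads in all. The acetylcholine receptor subunit Chrna1 had the lowest p of the list, with 17.4 and 16.0 RPKM against 2.26 and 4.52 RPKM (-2.06 ± 0.42 SE, limma adjusted p = 0.506). In limma-voom it was called lower in KO (-2.36 ± 0.52 SE, adjusted p = 0.040). Chrng, the subunit of the fetal receptor, had 7.17 and 3.06 RPKM against 0.26 and 0 RPKM, and Chrnb1 had 5.24 and 9.22 RPKM against 1.31 and 1.96 RPKM. The satellite cell factor Pax7 had 8.49 and 3.62 RPKM against 0.94 and 1.48 RPKM. Together with Myf5 (14 reads in all), Myog, Des and Chrna1, these are the 7 genes, and Myod1 (unadjusted p = 0.078 in limma) is not among them.

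The cultures also held reads of other cell types and of dividing cells, and their levels are given by library. Summed over 12 fibroblast markers, all of them detected, the levels were 528 and 337 RPKM in WT and 884 and 402 RPKM in KO, with the collagen gene Col1a1 at 29.1 to 55.8 RPKM in every library. Summed over 9 endothelial markers, all detected, they were 198 and 235 RPKM in WT and 227 and 223 RPKM in KO, with Pecam1 at 21.1 to 22.5 RPKM. Both KO values lay above both WT values for 5 of these 9 markers and below for 0. Over all genes with at least 20 reads, 22.7% were higher and 20.8% lower by this count. Among such genes, it was 4 higher and 2 lower of 12 fibroblast markers, and 10 higher and 0 lower of 15 cell cycle genes. Of 4 immune markers 2 were higher and 2 lower, and of 7 smooth muscle and pericyte markers 0 and 3. Of 14 regulators and early genes of muscle differentiation, 1 was higher and 10 were lower. The 10 immune markers summed to 49.7 and 76.5 RPKM in WT and 66.8 and 51.4 RPKM in KO, with Itgam and C1qa at 0 and Ptprc at 5, 0, 6 and 0 reads. The 10 smooth muscle and pericyte markers summed to 195.9 and 149.8 RPKM in WT and 133.0 and 132.7 RPKM in KO, with Tagln listed at 0. At an unadjusted p under 0.05 in limma, 4.46% of all tested genes were lower and 2.86% higher. At that p, 1 of 12 tested fibroblast markers (Postn) and 1 of 9 endothelial markers (Kdr) were higher in KO. Of 5 tested immune markers Adgre1 was higher and Lyz2 lower, while 0 of 7 smooth muscle and pericyte markers moved either way. None of these passed after adjustment. The 15 cell cycle genes had their lowest sum in WT library 1, at 70.4 RPKM, against 153.4 in WT library 2 and 189.1 and 175.7 in KO. All 15 had a log2 fold change above 0 (median 0.94), 2 of them (Tpx2 and Ccna2) at an unadjusted p under 0.05 and 0 after adjustment in limma. The library with the most sarcomere gene signal thus had the least cell cycle signal. The part of cell composition and of the cell cycle in the sarcomere gene values was not tested.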

How the data were processed

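Primary myoblasts were profiled in 2 WT and 2 eIF5A-KO libraries, grouped by their titles. The titles name Polysome-Seq, whereas the protocol describes RNase I ribosome profiling, and the cycloheximide time is stated in different ways. The deposited values are RPKM per gene, computed by the authors who discarded reads of low quality and of rRNA or tRNA, mapped with TopHat2 (mm10, an Ensembl annotation) and counted with HTSeq. Strand and multi-mapping settings are not given in the sources used here. RPKM times gene length gave whole reads for 100% of values (tolerance 0.01 reads). Library sizes used by the authors were 602863, 471136, 906990 and 807705, which are not the read totals.

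Of the gene identifiers, 99.7% were in GENCODE M21, used for exons and coding sequences. The main test was limma 3.58.1 (R 4.3.3; lmFit, eBayes with trend=TRUE, two-sided) on log2(RPKM + 1) of genes averaging 1 RPKM or more, with Benjamini-Hochberg adjustment over all 11363 tested genes. This scale understates the change of low genes. Alternatives changed the pseudocount, filter, scaling, GC trend, variance trend, replicate block and libraries, and used limma-voom on the reads. Values per library are given for sarcomere genes with at least 20 reads or an unadjusted p under 0.05. The other lists are given by counts, with the names of up to 6 genes a list that had both (by lowest p) and of Myod1, Myog, Des and Acta1, and with values for the muscle genes among them. Marker genes given beside the lists (Col1a1, Pecam1 and Ptprc) and Myf5 were picked after their values were seen. The genes and lists were chosen with earlier results of these data known. Counting error is all that the 95% intervals and the 3-read floor cover, because amplified reads are not independent molecules.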

Additional observations from a re-analysis of the deposited data

How the results depend on the processing

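Under every alternative run, 0 sarcomere genes passed the adjusted threshold in either direction. The count of 4 lower at an unadjusted p under 0.05 was 1 with a minimum mean of 5 RPKM (2 genes tested) and 2 after scaling each library to an equal read total. It ranged from 0 to 8 when a library was left out, with 3 without WT library 1, 8 without WT library 2, 0 without KO library 1 and 2 without KO library 2. The median log2 fold change of -1.06 was -0.23 over the 36 genes above 0, -1.82 over the 9 genes of limma-voom, and -1.25 to -0.71 with a library left out. Scaling to an equal read total moved the median of all genes to 0.47, and the sarcomere genes then lay 1.42 below it. The 11 genes called lower and the 1 called higher among all genes became 0 and 0 with a minimum of 5 RPKM, every gene above 0, a pseudocount of 0.1, at least 20 reads, the equal total, no variance trend, the GC trend removed, or any library left out (range 0 to 0), and 39 and 0 with limma-voom. With the replicate block they also became 0 and 0. Same-numbered libraries deviated with a correlation of 0.06 over genes. With 2 libraries per group, this value cannot show whether they share a litter or a day. The block changed no call of a sarcomere gene. Without WT library 1, Tnnt1 turned to 0.32 (-1.84 without WT library 2, its other extreme) and Neb to 0.10 (-2.69), and the ratio of KO to WT in the share of reads rose to 0.677 (0.151). Myl4, at 0.03, turned to -0.049 with coding reads scaled to an equal total, -0.10 with limma-voom, -0.80 without WT library 2 and -0.52 without KO library 1, and was 0.85 without WT library 1. The cause of these moves was not tested. Depth limits the comparison, since 21 of the 43 genes had 3 reads or fewer in every library.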
